A study of Mus musculus with 4 samples.

Results

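Ferroptosis is a form of cell death driven by iron-dependent peroxidation of membrane lipids, and 10 genes of iron handling and of the defence against it were followed through the cells of the postnatal mouse cerebellum. They were listed by symbol, with earlier results of these data known, and all 10 were among the 32285 genes of the count tables. Tfrc, Fth1 and Ftl1 bring iron in and store it. Slc7a11 and Gpx4 serve the glutathione arm of the defence. Acsl4 makes membranes more oxidisable, and Scd1 and Scd2 make them less so. Gch1 and Aifm2 protect lipids without glutathione.

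In GENCODE vM21 on GRCm38, Tfrc lies at chr16:32608920-32632794 on the plus strand, Fth1 at chr19:9980598-9985098 on the plus strand and Ftl1 at chr7:45457944-45459884 on the minus strand. Slc7a11 lies at chr3:49892526-50443614 on the minus strand, Gpx4 at chr10:80047166-80056439 on the plus strand and Acsl4 at chrX:142317993-142390535 on the minus strand. Scd2 and Scd1 lie near each other, at chr19:44293674-44306864 on the plus strand and chr19:44394455-44407879 on the minus strand. Gch1 lies at chr14:47153895-47189413 on the minus strand and Aifm2 at chr10:61715263-61739260 on the plus strand.

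The libraries were 4 single-cell RNA-seq libraries of whole mouse cerebellum, 1 each from wild type (P10 WT) and Eftud2 cKO (P10 cKO) at postnatal day 10, and likewise from wild type (P14 WT) and Eftud2 cKO (P14 cKO) at postnatal day 14. Eftud2 encodes a GTPase of the U5 spliceosomal complex, and cKO stands for conditional knockout. The series names Purkinje cells as the Eftud2-deficient cells, and its labels give neither the Cre driver, the deleted part of the gene, the sex nor the number of animals in a library. The cerebella were freed of meninges and dissociated with trypsin, and the cells were encapsulated on a 10x Genomics platform.

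Each group was 1 library with no replicate, so no test of genotype or age was made, and every interval below covers counting error only, not the spread between animals. Reads of 1 molecule share a molecular identifier (UMI), and a level (CPM) is the gene's share of all UMIs that a class of cells held in 1 library, counted per 1000000. Where 4 values follow each other they stand in the order WT and cKO of P10, then WT and cKO of P14. Differences are log2 ratios of cKO over WT with a 95% counting interval. They are read only where the pair of libraries held at least 100 UMIs of the gene in that class.

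The libraries held between 91091692 and 158017834 UMIs, and between 6308 and 15395 cells passed the filters. Cells were assigned to classes by how many genes of a marker list they carried, none of them a member, and 13 classes had at least 20 cells in every library. Class names stand for cells that carried those markers. Between 1 and 3 cells a library carried enough Purkinje markers, but all of them passed the gate of another lineage too and were left out like other such cells. No cell was therefore assigned to the Purkinje class, so the cells that the series names as deficient are not described here, and the knockout could not be checked in them. In the other cells the P14 ratio of Eftud2 ran from -0.46 to 0.62 over 11 classes and was below 0 in 7 of them. Between 12 and 83 cell barcodes were shared by any pair of libraries, at most 0.744% of the smaller one.

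The iron genes carry a well known control by iron itself. Ferritin messenger RNAs hold an iron responsive element, a short hairpin, before the coding sequence, and iron regulatory proteins that bind it when iron is scarce block translation. The transferrin receptor messenger RNA holds such hairpins after the coding sequence, where the same proteins protect it from decay. Ferritin protein can therefore change with no change in UMIs, whereas Tfrc UMIs can follow iron supply. The cystine importer Slc7a11 feeds glutathione synthesis, and Gpx4 spends glutathione to reduce lipid peroxides.

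The elements are shown because they are what the 3 iron members share and what a UMI count does not read. A search of all GENCODE vM21 untranslated regions for C, 5 bases, the loop CAGUGN and 5 bases that pair with the first 5 found them in 0.146% of 21200 genes before the coding sequence and in 0.659% of 21849 genes after it. Each line is 27 bases, 5′ to 3′, with the loop in capitals. A match is a description and not a tested site.
Fth1, before the coding sequence, chr19:9982733-9982759, plus strand of GRCm38: uccugcuucaaCAGUGCuugaacggaa
Ftl1, before the coding sequence, chr7:45459780-45459806, minus strand: ucuugcuucaaCAGUGUuugaacggaa
Tfrc, after the coding sequence, chr16:32631220-32631246, plus strand: auuaucggaagCAGUGCcuuccauaau
Tfrc, chr16:32631599-32631625, plus strand: auuaucgggagCAGUGUcuuccauaau
Tfrc, chr16:32631664-32631690, plus strand: uauaucggagaCAGUGAucuccauaug
Tfrc, chr16:32631711-32631737, plus strand: auuaucgggaaCAGUGUuucccauaau
The search found 1 element in each ferritin gene and 4 in Tfrc. None of the other 7 members matched.

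Tfrc, the receptor that takes up iron-loaded transferrin, was a gene of the endothelium in every library. Its level there was 1640, 1497, 981 and 1192 CPM. The next class never exceeded 102 CPM, so endothelial cells came first in all 4 libraries, far beyond counting error. After each cell was thinned to 2000 UMIs, 74.3% of P14 WT and 75.4% of P14 cKO endothelial cells still had a Tfrc UMI, against 4.69% and 1.20% of fibroblasts. Among the other classes the levels lay between 8.0 and 102 CPM, and many of their intervals overlapped. Fibroblasts and microglia were the lowest in every library, at 8.0 to 22.2 and 9.2 to 15.3 CPM.

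Fth1, the ferritin heavy chain that oxidises iron for storage, was highest in myelinating oligodendrocytes, at 18737, 11072, 12565 and 9741 CPM. Endothelial cells came second in every library, at 11682, 9125, 5491 and 6606 CPM. Border macrophages came next in every library, and granule neurons, interneurons and oligodendrocyte precursors were among the lowest. The lowest class level in any library was 403 CPM, so no class lacked it.

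Ftl1, the light chain that helps build the iron core, followed another order. Border macrophages held 8275, 5274, 5345 and 4741 CPM. Microglia held 5761, 3586, 4571 and 5255 CPM and were the only class to pass border macrophages, in P14 cKO. Astroglia were lowest in every library, between 322 and 548 CPM. Ftl1 has a near-identical copy, Ftl1-ps1, and reads that fit both cannot be given to either, so the Ftl1 levels are uncertain to that extent. Ftl1-ps1 itself was listed at up to 99.1 CPM.

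The balance between both ferritin chains separated the classes widely. Myelinating oligodendrocytes held between 11.8 and 14.4 Fth1 UMIs per Ftl1 UMI, and endothelial cells between 5.51 and 10.2. Newborn granule neurons held between 0.348 and 0.459, the lowest class in every library except P10 WT, where maturing granule neurons held 0.444. Astroglia, lymphoid cells and fibroblasts also held more heavy than light chain UMIs in every library. The granule cell classes, interneurons, microglia and both earlier oligodendrocyte classes held more light chain UMIs in every library, and border macrophages in every library but P14 cKO (1.01). These are ratios of UMIs and not of protein.

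**Figure D1:**
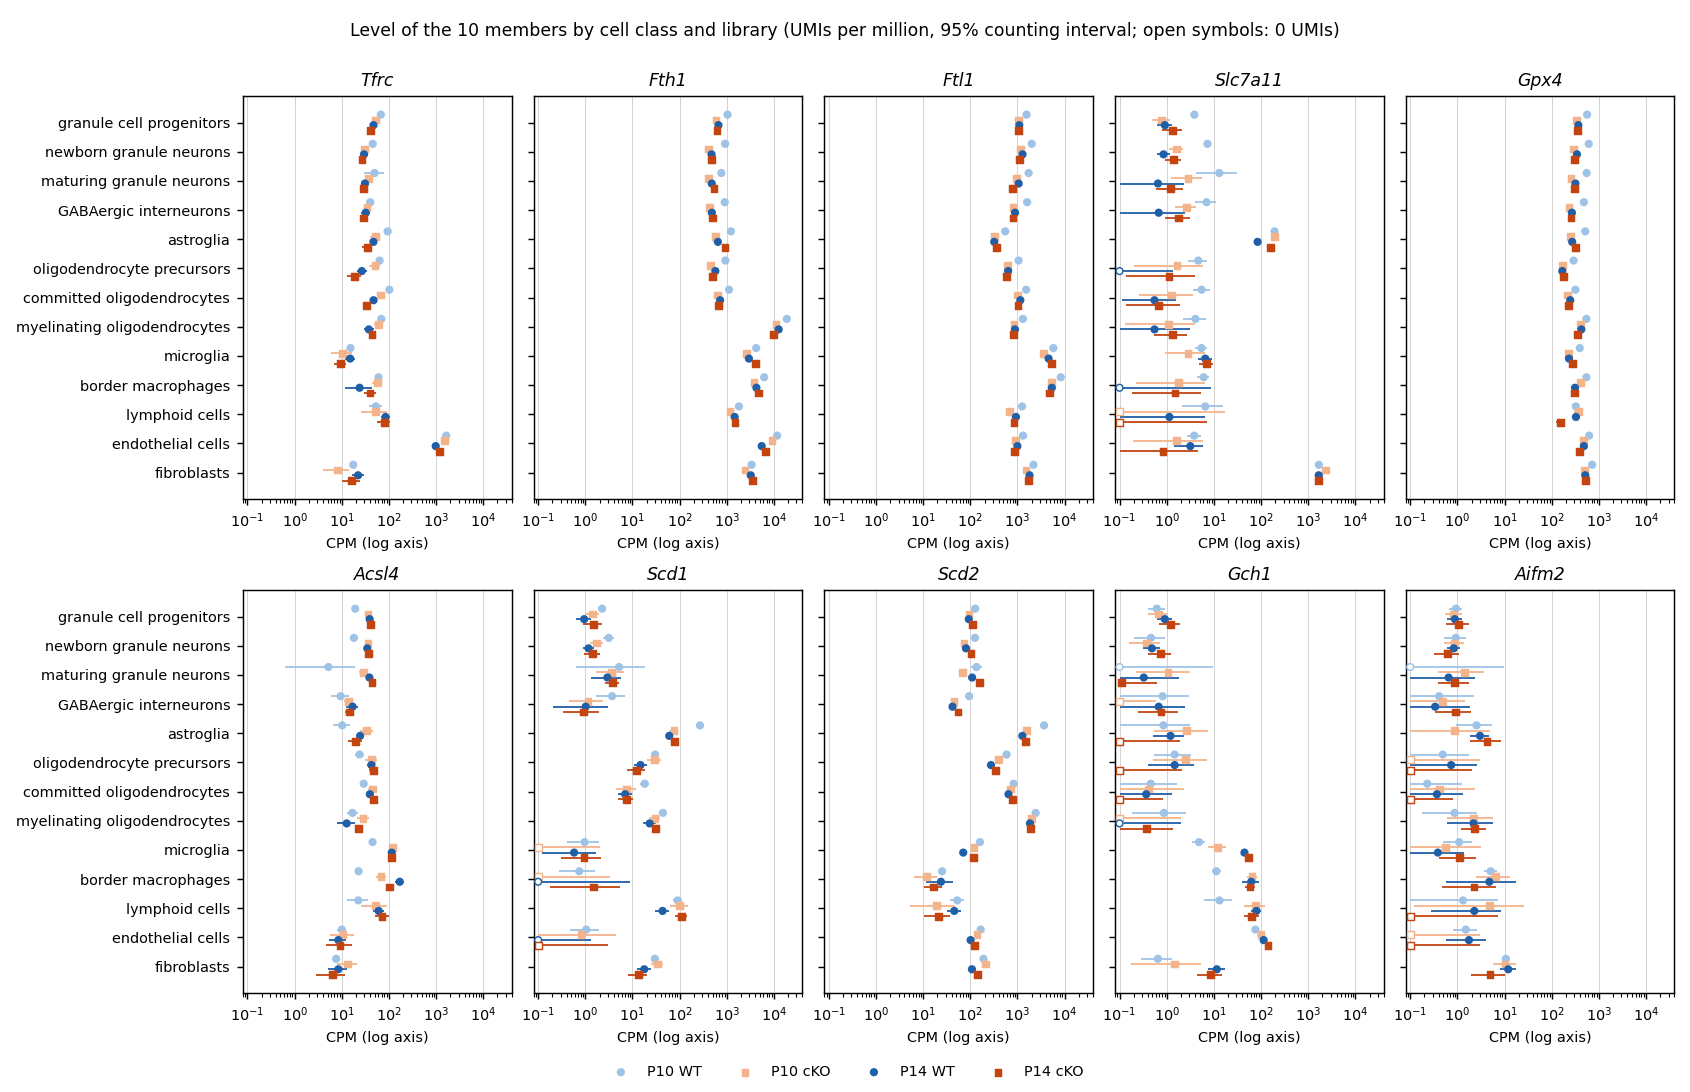
Levels of the 10 members (x axis, CPM, log axis) in 13 cell classes (y axis) of each library, with 95% counting intervals; circles are WT, squares cKO, pale P10, dark P14, and open symbols are 0 UMIs drawn at the left edge. Tfrc stands out in endothelial cells, at 981 to 1640 CPM, and Slc7a11 in fibroblasts, at 1669 to 2325 CPM.

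**Figure D2:**
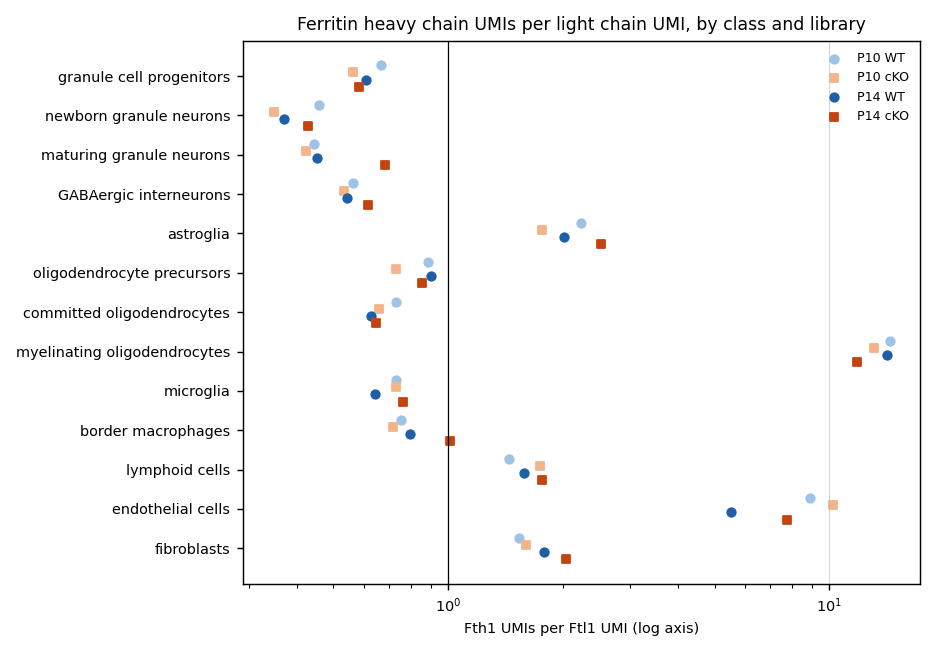
Fth1 UMIs per Ftl1 UMI (x axis, log axis) by cell class (y axis) and library (circles WT, squares cKO, pale P10, dark P14; no error bars). Myelinating oligodendrocytes lie between 11.8 and 14.4 and newborn granule neurons between 0.348 and 0.459.

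Slc7a11, the cystine importer, was a gene of fibroblasts and, at lower levels, astroglia. Fibroblasts held 1689, 2325, 1677 and 1669 CPM. Astroglia held 193, 194, 84.7 and 159.8 CPM. The highest level in any of the other 11 classes was 13 CPM, in P10 WT maturing granule neurons. Outside the 13 classes, blood myeloid cells reached 120 CPM in 99 P10 WT cells and 291 CPM in 20 P14 WT cells.

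Gpx4, the selenoenzyme that reduces phospholipid peroxides, was found in every class. Its levels ran from 152 to 721 CPM over all classes and libraries, highest in fibroblasts in all 4 libraries. Oligodendrocyte precursors were lowest in every library except P14 cKO, where lymphoid cells were. Choroid plexus cells, which had enough cells in P14 WT only, held more than any of the 13 classes there, at 1576 CPM.

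Acsl4, which loads polyunsaturated fatty acids into phospholipids, was highest in microglia or border macrophages in every library. At P14, microglia held 115 CPM in WT and 112 in cKO, and border macrophages held 169.3 and 104. Endothelial cells and fibroblasts were lowest at P14, at 6.3 to 9.2 CPM. Fibroblasts, the class with the highest Slc7a11, were thus among the lowest in Acsl4.

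The stearoyl-CoA desaturases Scd1 and Scd2 make monounsaturated fatty acids, which resist peroxidation. Scd2 was highest in astroglia and myelinating oligodendrocytes, at 1270 to 3665 and 1842 to 2425 CPM. Scd1 followed a different order, with lymphoid cells at 43.4 to 108 CPM and astroglia at 60.2 to 270 CPM. Scd1 made up 48.7% to 84.0% of the desaturase UMIs in lymphoid cells and 4.53% to 6.86% in astroglia. Microglia and endothelial cells held at most 1.0 CPM of Scd1 in any library.

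Gch1, the entry enzyme of tetrahydrobiopterin synthesis, and Aifm2, which regenerates reduced coenzyme Q, were rare. Gch1 was highest in endothelial cells, at 76.2, 99.8, 114 and 141 CPM, and was at most 2.6 CPM in every neuronal, astroglial and oligodendrocyte class. Among the 13 classes Aifm2 was highest in fibroblasts, at 10.7, 10.2, 12 and 4.9 CPM. Only 7 UMIs stood behind the last value, whose interval of 2.0 to 10.1 CPM overlaps those of the other 3, and no class at P14 reached 100 Aifm2 UMIs in the pair.

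The 3 genes with levels most like each member's were sought over 52 units, the 13 classes of the 4 libraries. For Slc7a11 they were Col1a2 (Pearson r = 0.965), Gjb2 and Nbl1. For Tfrc they were Myct1 (r = 0.882), Srarp and Robo4, and for Gch1 Prkch (r = 0.946), Sp100 and Slfn5. Those of Scd2 included Gde1 (r = 0.944) and S100b. Fth1 was nearest to BC028528 (r = 0.903), Anxa5 and Lipa, and Ftl1 to Clta (r = 0.928), Egr2 and Tfe3. The looser relations were those of Aifm2 with Car13 (r = 0.836), Parp3 and Selenbp1, of Scd1 with Psph (r = 0.811), Col5a3 and Sspn, of Gpx4 with Ubxn6 (r = 0.779), Fkbp8 and Bloc1s1, and of Acsl4 with Abcb1b (r = 0.775), Tle4 and Myo9b. The units of a library share its depth and free RNA, and these correlations of log2(CPM + 1) are given as descriptions only.

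The P14 libraries were made with the same version of Cell Ranger (7.1.0), and their comparison asks how the members differ around deficient Purkinje cells in other cells of the cerebellum. Differences were small. Of 79 member ratios with enough UMIs, none was past 2-fold higher and 1 was past 2-fold lower, against 1.38% and 0.783% of 101144 ratios of all genes. Past 1.5-fold, 3 were higher and 3 lower, against 4.75% and 3.61% of all ratios. The members' shares were near the background at either threshold, and the median ratio of all genes lay between -0.08 and 0.06 in every class.

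**Figure D3:**
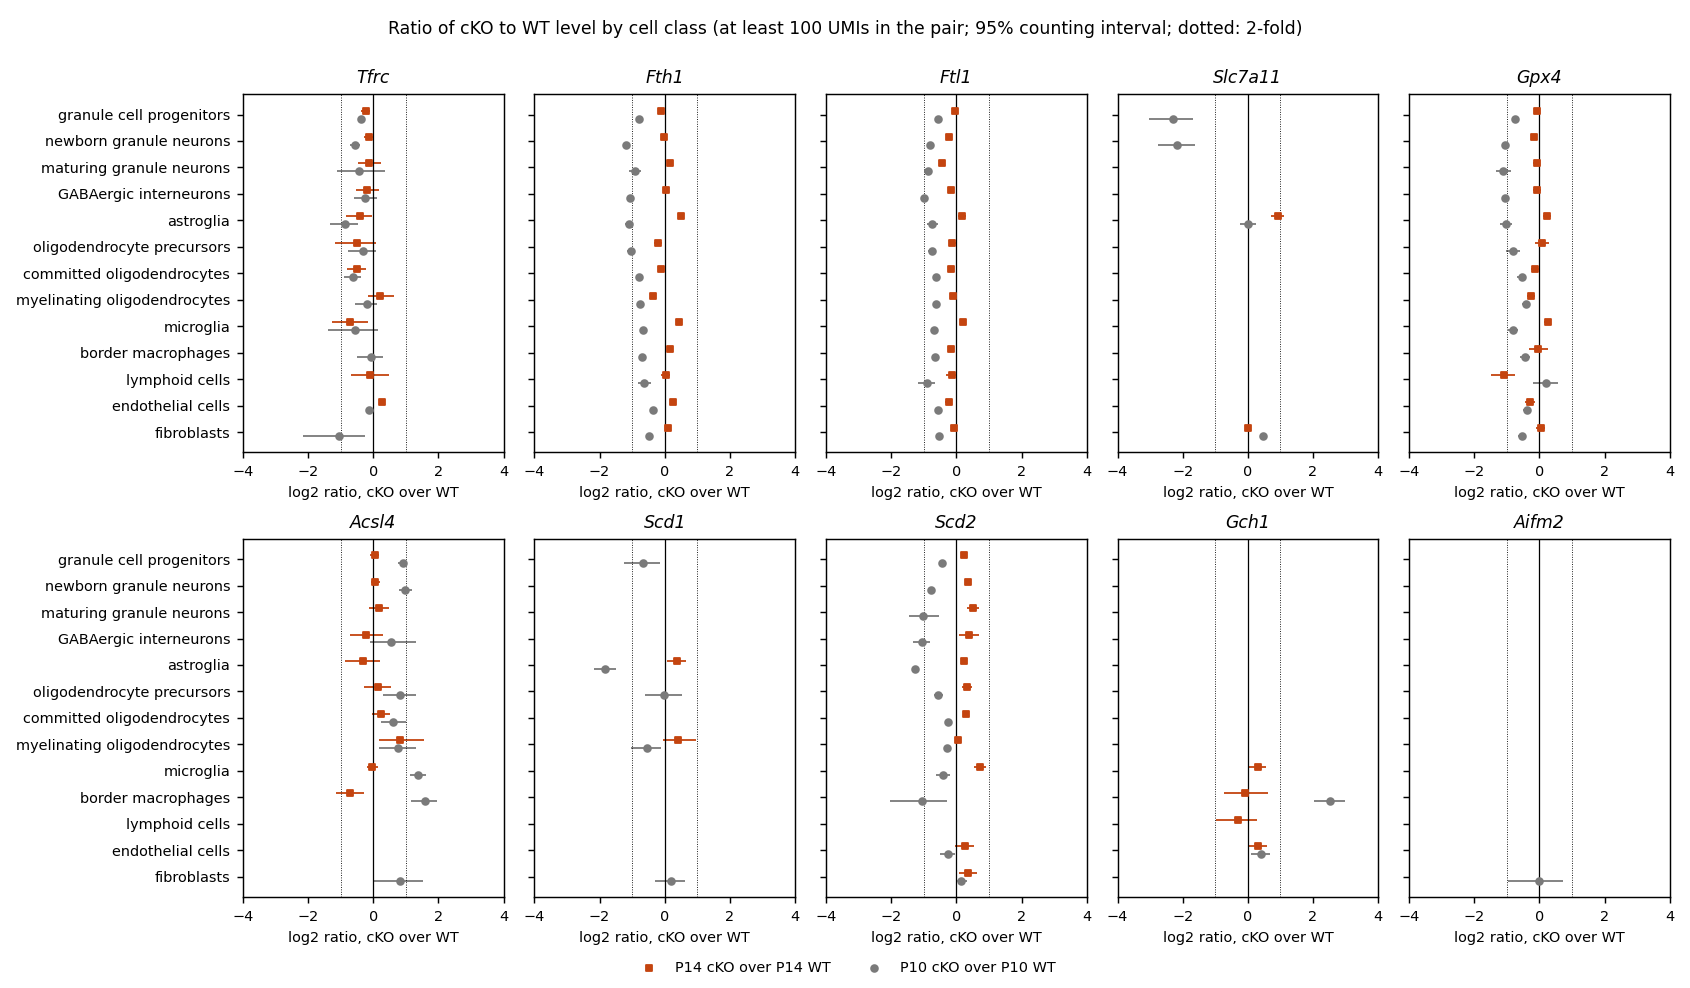
Log2 ratio of cKO over WT (x axis) by cell class (y axis) for each member with at least 100 UMIs in the pair, with 95% counting intervals; squares are P14, grey circles P10, dotted lines 2-fold. The outermost squares are Slc7a11 in astroglia (0.92) and Gpx4 in lymphoid cells (-1.09), and most circles of Fth1, Ftl1 and Gpx4 lie below 0.

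The largest ratio upward belonged to Slc7a11 in astroglia. Its level was 84.7 CPM in P14 WT (interval 77.8 to 92.0, from 561 UMIs) against 159.8 CPM in P14 cKO (142 to 179, from 302 UMIs), a log2 ratio of 0.92 (0.71 to 1.12). The intervals of the P14 pair did not overlap, and the P14 WT library was the low one of all 4. The difference was in the number of cells as well as the sum: of cells thinned to 2000 UMIs, 9.57% of 627 P14 WT astroglia and 30.2% of 129 P14 cKO astroglia had a Slc7a11 UMI. Among granule cell progenitors the same shares were 0.293% and 0.552%. Without thinning they were 27.7% and 59.9% of astroglia, whose median depth was 9576 and 12293 UMIs, and 1.09% and 2.49% of progenitors, at 13033 and 17845 UMIs.

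The astroglia of the P14 pair also differed in make-up. Gdf10, which marks Bergmann glia, had a UMI in 61.3% of P14 WT astroglia and in 40.8% of P14 cKO astroglia. With a Gdf10 UMI, Slc7a11 stood at 45.4 CPM in 409 P14 WT cells and 120 CPM in 62 P14 cKO cells, a log2 ratio of 1.41 (1.07 to 1.74). Without one, it stood at 160 CPM in 258 cells and 202 CPM in 90 cells, a log2 ratio of 0.33 (0.07 to 0.59). Both subsets were higher in P14 cKO, and the larger ratio was in the Gdf10 subset. Gdf10 was chosen for this split after the values were seen, and its own level was 838 CPM in P14 WT against 401 in P14 cKO.

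Markers of fibroblasts, the class richest in Slc7a11, were counted in astroglia. The 9 fibroblast markers summed to 157 CPM in P14 WT astroglia and 154 CPM in P14 cKO astroglia. Among astroglia without any fibroblast marker UMI, Slc7a11 stood at 57.5 CPM in 240 P14 WT cells and 191 CPM in 51 P14 cKO cells. The ratio there was 1.73 (1.22 to 2.23). These cells were shallower, at a median of 5355 and 3092 UMIs, and the share with a Gdf10 UMI was 25.5% in P14 cKO and higher in P14 WT, so that they were not a like sample of all astroglia. The part of fibroblast RNA in the ratio was not tested further. In fibroblasts themselves it did not differ beyond counting error at P14 (-0.01, -0.08 to 0.07).

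The region before the Slc7a11 start site is shown because this was the member with the largest P14 ratio and because ATF4, a transcription factor of the amino acid response, is known to act on it. It is RefSeq sequence of GRCm38.p6, chr3:50443614-50443733, minus strand, 120 bases ending at the start site. Capitals mark the C/EBP-ATF response element, TGATGCAA on either strand.
Slc7a11: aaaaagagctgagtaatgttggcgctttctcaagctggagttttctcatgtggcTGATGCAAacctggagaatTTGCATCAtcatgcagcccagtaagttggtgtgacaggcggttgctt
The motif begins at -66 and, on the other strand, at -47 from the start site. It is in 0.895% of 32851 promoter windows of 300 bases, and in none of the other 12 windows of the 8 members that the table holds. The antioxidant response motif TGACNNNGC was in 0 of those 13 windows and in 12.4% of all windows. A match is not shown to be bound here.

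Iron storage genes were also higher in P14 cKO astroglia. Fth1 stood at 647 CPM in P14 WT against 921 in P14 cKO, a log2 ratio of 0.51 (0.43 to 0.59), and Ftl1 at 322 and 366 CPM, a ratio of 0.19 (0.06 to 0.31). Gpx4 stood at 272 and 319 CPM, a ratio of 0.23 (0.09 to 0.36). Macrophage markers were low but higher in the cKO library, with microglia markers at 19.6 and 31.2 CPM and border macrophage markers at 4.7 and 14.8 CPM. Among astroglia without any UMI of those markers, the Fth1 ratio was 0.67 and that of Ftl1 0.11 (-0.06 to 0.27). Tfrc went the other way, at 46.8 and 34.9 CPM (-0.41, -0.83 to -0.03).

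Among astroglia with a Gdf10 UMI the differences were larger for Fth1, Gpx4 and both desaturases. The P14 ratio there was 0.68 for Fth1, 0.49 for Gpx4, 0.62 for Scd1 and 0.40 for Scd2. Without a Gdf10 UMI it was 0.17 for Fth1, -0.17 for Gpx4, -0.06 for Scd1 and -0.03 for Scd2, and for Gpx4, Scd1 and Scd2 the interval held 0. Scd1 stood at 60.2 and 77.3 CPM in all P14 astroglia. That direction turned among the 441 and 57 astroglia without a myelin marker UMI (51.2 and 39.3 CPM) and among the 240 and 51 without a fibroblast marker UMI (55.0 and 45.9 CPM). Both restricted intervals held 0 (-1.16 to 0.32 and -1.23 to 0.59), so no direction of Scd1 is read in those cells.

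**Figure D4:**
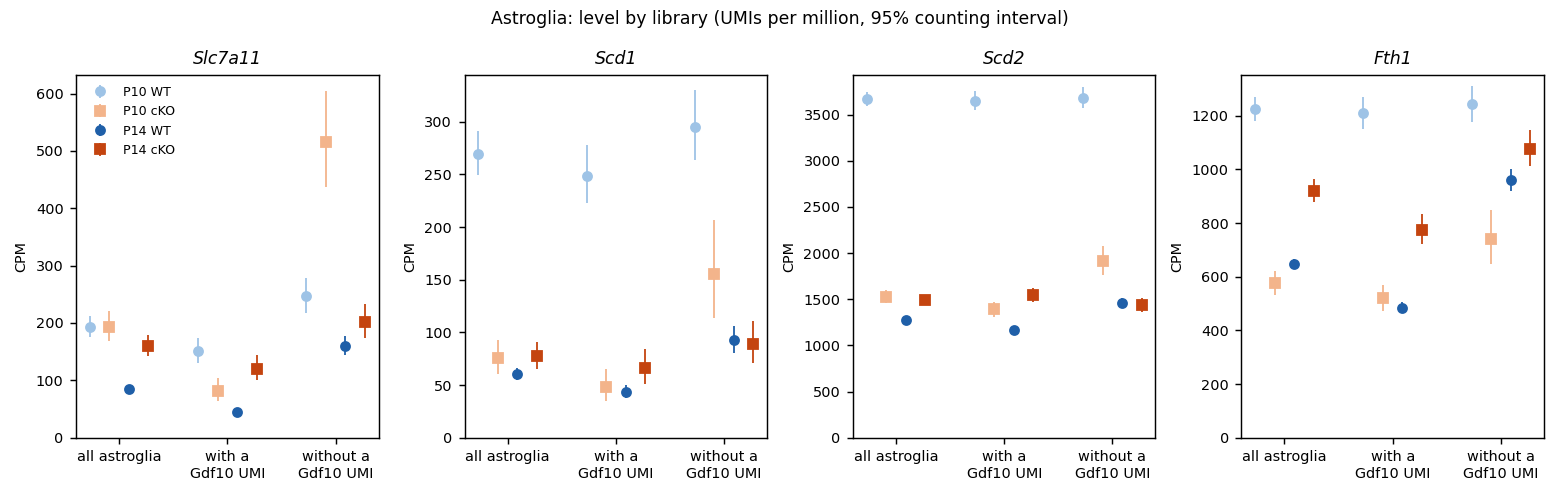
Levels of 4 members (y axis, CPM, from 0) in all astroglia and in astroglia with and without a Gdf10 UMI, by library, with 95% counting intervals (circles WT, squares cKO, pale P10, dark P14). Slc7a11 stands at 84.7 CPM in P14 WT against 160 CPM in P14 cKO, and Scd1 at 270 CPM in P10 WT against 60.2 to 77.3 CPM in the other 3 libraries.

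Scd2 was the member with the most uniform direction at P14. It was higher in cKO in 11 of 11 classes with enough UMIs, with a median log2 ratio of 0.33 (range 0.05 to 0.72), and the interval lay above 0 in 9 of them. Of 5896 genes measured in at least 9 classes, 1.95% were higher in every class. The classes under the minimum went the other way for Scd2. Lymphoid cells held 45.7 CPM in P14 WT and 21.2 in P14 cKO, from 40 and 11 UMIs. Border macrophages held 23.8 and 16.5 CPM, from 10 and 22 UMIs. The largest ratio was in microglia, at 70.8 CPM in P14 WT against 117 CPM in P14 cKO (0.72, 0.53 to 0.91). In newborn granule neurons it stood at 80.9 and 103 CPM (0.35, 0.27 to 0.43), and in myelinating oligodendrocytes at 1842 and 1912 CPM (0.05), where the interval held 0. The myelinating cells, which are among the 11 classes, differed in depth as given below. Their Scd2 ratio ran from -0.24 to 0.32 over 14 alternative settings, so no direction is read there.

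Myelin messages differed in the same direction as Scd2. The summed markers of myelinating oligodendrocytes were higher in P14 cKO in all 13 classes, for example 16.6 and 70.4 CPM in newborn granule neurons and 33.0 and 85.6 CPM in microglia. Among cells without any myelin marker UMI, in the classes outside the oligodendrocyte lineage, Scd2 was higher in 5 of 6 classes with enough UMIs, with a median ratio of 0.34. The exception was astroglia, at 1201 CPM in P14 WT against 1174 CPM in P14 cKO, with an interval of the ratio that held 0 (-0.16 to 0.10). The part of free myelin RNA in the remaining differences was not tested. For cells without a myelin marker UMI, the share of all genes that were higher is not reported here.

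In microglia both ferritin chains were higher in P14 cKO. Fth1 stood at 2942 CPM in P14 WT against 4005 CPM in P14 cKO (0.44, 0.41 to 0.47), and Ftl1 at 4571 and 5255 CPM (0.20, 0.18 to 0.23). Tfrc stood at 15.0 and 9.2 CPM (-0.70, -1.25 to -0.17), from 78 and 49 UMIs, and that direction turned when cells were thinned before they were classed. Border macrophage markers in microglia summed to 180 CPM in P14 WT against 161 CPM in P14 cKO. The other compared classes with higher Fth1 and its interval above 0 were astroglia, border macrophages, endothelial cells, fibroblasts and maturing granule neurons. Among cells without a myelin marker UMI, Fth1 was higher in 5 of 8 classes with enough UMIs. Its ratio there was 0.44 in microglia, 0.39 in astroglia and 0.30 in border macrophages. In maturing granule neurons it was 0.10, with an interval that held 0. The part of free myelin RNA in these ratios was not tested, and the share of all genes higher in such cells is not reported here.

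Across all classes Fth1 was higher in cKO in 8 of 13 at P14 and Ftl1 lower in 11 of 13, astroglia and microglia being the exceptions. Of 101144 ratios of all genes at P14, 48.4% were above 0 and 51.6% below, so the split of Fth1 was near that of all genes. The lowest Ftl1 ratio was in maturing granule neurons, at 1060 CPM in P14 WT against 786 in P14 cKO (-0.43, -0.49 to -0.37). Tfrc was lower in 9 of 11 classes, and higher in endothelial cells, at 981 and 1192 CPM (0.28, 0.19 to 0.37), and in myelinating oligodendrocytes, where the interval held 0. Erythroid markers, whose cells also express Tfrc, summed to 6593 CPM in P14 WT endothelial cells and 17437 CPM in P14 cKO ones, and their part in the Tfrc ratio was not tested. Of the genes measured in at least 9 classes, 15.3% were lower in all but at most 2 classes, as Tfrc and Ftl1 were. Ratios of this size have no replicate behind them.

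Fth1 in myelinating oligodendrocytes was lower in P14 cKO, at 12565 and 9741 CPM (-0.37, -0.39 to -0.34). The cells themselves differed, with a median of 36980 UMIs in 56 P14 WT cells and 1555 UMIs in 241 P14 cKO cells. Among those without a macrophage marker UMI, 22 and 133 cells, the direction turned, with a log2 ratio of 0.21. Acsl4 stood at 12.7 and 22.7 CPM in the same class (0.81, 0.19 to 1.55), from only 23 and 120 UMIs, and was lower in cKO after thinning. No direction can be read for either gene in this class at these depths.

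The single ratio past 2-fold at P14 was Gpx4 in lymphoid cells, at 327 CPM in 127 P14 WT cells and 152 CPM in 60 P14 cKO cells (-1.09, -1.48 to -0.74). At P10 the class held 324 CPM in WT and 368 in cKO, so P14 cKO was the low library. The lymphoid samples differed in make-up, with Nkg7, of natural killer and cytotoxic T cells, at 598 CPM in P14 WT against 54.0 in P14 cKO, and the B cell gene Cd79a at 870 and 1641 CPM. Nkg7 was the extreme of the T and natural killer genes counted: Trbc2 stood at 581 and 266 CPM, Cd3d at 313 and 222, Cd3g at 306.3 and 248.8 and Cd3e at 127 and 137. Erythroid markers in the class summed to 40.0 and 561 CPM. Scd1 in the same cells stood at 43.4 and 108 CPM, from 38 and 56 UMIs, under the minimum. The part of this make-up in the ratio was not tested. Of all genes measured in this class, 7.41% were past 2-fold, the highest share of any class at P14.

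Acsl4 in border macrophages stood at 169.3 CPM in P14 WT against 104 CPM in P14 cKO (-0.71, -1.13 to -0.27), from 53 and 129 cells. In microglia it stood at 115 and 112 CPM. Gch1 was a little higher in P14 cKO in endothelial cells (114 and 141 CPM, 0.31, 0.03 to 0.58) and in microglia (44.5 and 55.0 CPM, 0.30, 0.05 to 0.56). The microglial ratio was -0.20 when cells were thinned before they were classed, and 0.12 (-0.33 to 0.53) among microglia without a myelin marker UMI. Thinned to 2000 UMIs, 7.17% of P14 WT and 6.35% of P14 cKO microglia had a Gch1 UMI, and the intervals of the shares overlapped.

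The wider pathways were read through 6 lists of 81 genes in all, which exclude the members. Over the 13 classes at P14, 557 ratios had enough UMIs, of which 1 was past 2-fold higher and 4 past 2-fold lower. These shares, 0.180% and 0.718%, lie below those of all genes. The list medians ran between -0.64 and 0.27 over classes.

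Of the iron uptake and release list, 0 of 54 ratios were past 2-fold higher and 1 was lower. That one was Trf, transferrin itself, in astroglia, at 272 CPM in P14 WT against 101 CPM in P14 cKO (-1.43, -1.66 to -1.22). Trf stood at 5457 and 3341 CPM in myelinating oligodendrocytes, its richest class, where the depths of the cells differ as given above and no direction is read. It was higher in newborn granule neurons, at 15.3 and 21.7 CPM (0.51). Myelin markers were higher in those P14 cKO cells too, as given above, and the part of free myelin RNA in this Trf ratio was not tested. The ferroxidase Heph was higher in astroglia (17.2 and 27.0 CPM), and the ferroxidase Cp lower in astroglia (30.3 and 16.9 CPM) and in endothelial cells (35.2 and 19.2 CPM). The importer Slc39a14 was higher in astroglia, at 35.3 and 58.2 CPM (0.72). The exporter Slc40a1 stood at 367 and 430 CPM in endothelial cells and at 67.1 and 56.5 CPM in microglia.

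Of 142 ratios of the iron storage and sensing list, none was past 2-fold in either direction. In border macrophages Ncoa4, which sends ferritin to lysosomes, stood at 73.9 and 120 CPM (0.68, 0.14 to 1.30), and the haem oxygenase Hmox1 at 322 and 239 CPM (-0.43). Ireb2, an iron regulatory protein, stood at 63.1 and 54.0 CPM in microglia, with an interval that held 0.

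The glutathione and cystine list had 0 of 120 ratios past 2-fold higher and 2 lower, both in lymphoid cells, where Prdx6, a peroxidase of membrane lipids, had 175 and 32 UMIs (-1.68) and Slc3a2, the partner chain of Slc7a11, stood at 130 and 63.6 CPM. In astroglia thioredoxin Txn1 was higher, at 138 and 193 CPM (0.49, 0.31 to 0.67), as was Gclm, of glutathione synthesis, at 75.8 and 105 CPM (0.47). In fibroblasts the glutathione synthesis genes Gclc (139 and 88.9 CPM) and Gclm (57.2 and 37.1 CPM) were lower, while Slc7a11 did not differ beyond counting error. In microglia Txn1 stood at 95.1 and 146 CPM and its reductase Txnrd1 at 92.2 and 134 CPM.

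The lipid peroxidation list had 1 of 117 ratios past 2-fold higher, Far1 of ether lipid synthesis in lymphoid cells (81.1 and 191 CPM), and none lower. In astroglia Fads1, Fads2 and Acsl3, which make and activate unsaturated fatty acids, were higher, at 117 and 156, 278 and 369, and 671 and 885 CPM. Por, an oxidoreductase of the same list, had the largest ratio there and was lower, at 78.0 and 56.1 CPM (-0.47, -0.79 to -0.17). The monounsaturated fatty acid list had 0 of 53 ratios past 2-fold in either direction, and its genes gave no common direction beside Scd2: in astroglia Srebf1 was higher (56.1 and 80.4 CPM) and Elovl6 lower (81.4 and 56.1 CPM). Of 71 ratios of the tetrahydrobiopterin and quinone list, none was past 2-fold higher and 1 was lower, in maturing granule neurons. The list's median over genes ran from -0.36 to 0.12 across the classes.

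At P10 the pair gave far larger differences, and the 2 files came from different program versions, Cell Ranger 5.0.0 for WT and 7.0.1 for cKO. Of 84 member ratios, 3 were past 2-fold higher and 17 lower, against 18.2% and 3.96% of 101331 ratios of all genes. Past 1.5-fold, 9 were higher and 40 lower, against 27.3% and 17% of all. Fth1 and Ftl1 were lower in 13 of 13 classes, Gpx4 in 12 of 13, Tfrc in 12 of 12 and Scd2 in 11 of 12, while Acsl4 was higher in 9 of 9. Of 6142 genes measured in at least 9 classes, 25.9% were lower in every class, 44.7% lower in all but at most 2, and 23.9% higher in every class, so such directions were common at P10.

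The P10 directions of most members went with the length of their introns. Ftl1 has 0.601 kb of intron in GENCODE vM21, Fth1 1.03 kb, Gpx4 7.55 kb, Scd2 7.73 kb and Scd1 8.53 kb, and their median P10 ratios were -0.68, -0.79, -0.74, -0.50 and -0.56. Tfrc, with 17.7 kb, had a median of -0.41, and Acsl4, with 67.1 kb, one of 0.83. Not all members kept that order. Aifm2, with 19.9 kb, had -0.02 in 1 class, and Gch1, with 29.3 kb, had a median of 1.45 over 2 classes, above that of Acsl4. Slc7a11, with 537 kb, was level in astroglia, higher in fibroblasts (0.46) and lower in 2 granule cell classes that held a few CPM (-2.29 and -2.16). All genes did the same: in newborn granule neurons the median P10 ratio was -0.61 for 912 genes with under 1 kb of intron and 1.86 for 1647 genes with over 100 kb, whereas at P14 the same medians were -0.03 and 0.10. For ratios of P14 over P10 in these cells, the medians of the same length ranges were -0.45 and 1.65 in WT (versions 5.0.0 and 7.1.0). In cKO (7.0.1 and 7.1.0) they were 0.11 and -0.08. Cell Ranger counts intronic reads by default from its seventh major version on, which is background here since the options used are not given in the sources used here. Genotype and program version cannot be told apart at P10.

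**Figure D5:**
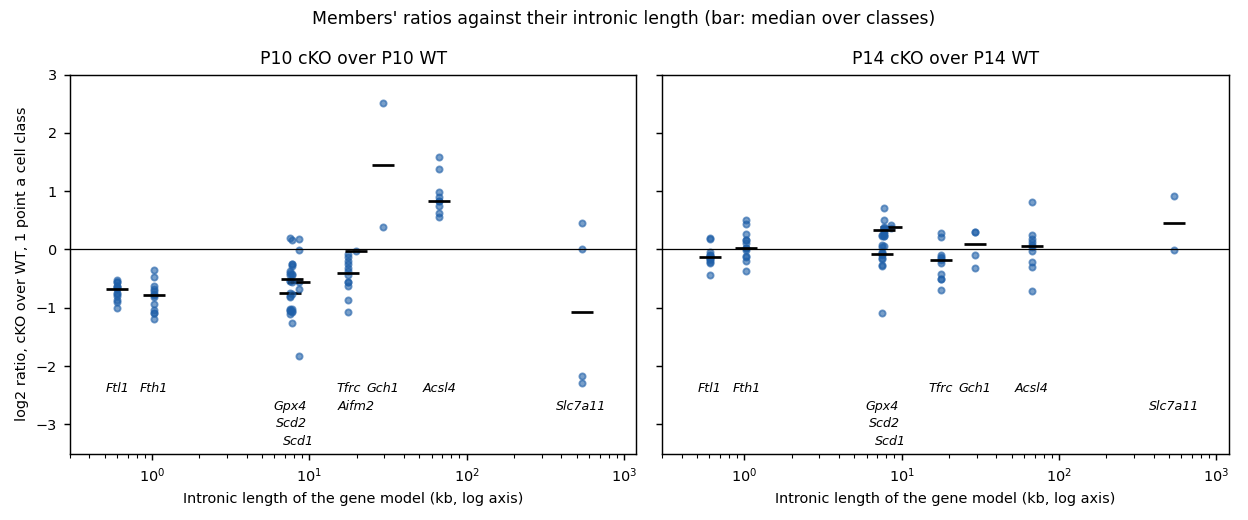
Log2 ratio of cKO over WT (y axis) against the intronic length of each member (x axis, kb, log axis), 1 point a cell class, bars at the median over classes, P10 left and P14 right. At P10 the median is -0.79 for Fth1 (1.03 kb) and 0.83 for Acsl4 (67.1 kb), and the 4 points of Slc7a11 (537 kb) run from -2.29 to 0.46.

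Free RNA also differed between the P10 libraries. Erythroid markers summed to between 1873 and 14164 CPM in every class of P10 WT, and to between 15.2 and 99.6 CPM in 12 of the 13 classes of P10 cKO, endothelial cells being the exception at 4126 CPM. Slc7a11 in granule cell progenitors stood at 3.9 CPM in P10 WT against 0.77 CPM in P10 cKO, and fibroblast markers in those cells at 85.5 and 36.0 CPM. Scd1 in astroglia stood at 270 CPM in P10 WT against 75.6 CPM in P10 cKO (-1.83, -2.18 to -1.51). Slc7a11 in astroglia was level at P10, at 193 and 194 CPM, and in fibroblasts it was 1689 and 2325 CPM. The parts of genotype, program version and free RNA in these values cannot be told apart.

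Between ages, the cKO libraries came from nearby program versions (7.0.1 and 7.1.0) and the WT libraries from distant ones (5.0.0 and 7.1.0). Tfrc was lower at P14 than at P10 in 9 of 9 classes of cKO, with a median log2 ratio of -0.39 (range -0.98 to -0.20), and 4.14% of 4570 genes measured in at least 9 classes were lower in every class. It was lowest in ratio in committed oligodendrocytes, at 65.6 CPM in P10 cKO and 33.1 in P14 cKO. In WT Tfrc was lower in 11 of 13, and 41.7% of 6717 genes so measured were lower in all but at most 2 classes. Fth1 was higher at P14 in 11 of 13 classes of cKO and lower in 13 of 13 of WT, the opposite direction. Of all genes so measured, 13.9% were higher in all but at most 2 classes of cKO, and 20.2% of 6717 were lower in every class of WT. In the WT pair, which spans versions 5.0.0 and 7.1.0, age and program version cannot be told apart.

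Gch1 in microglia was the largest age difference of a member in cKO. It stood at 4.8 CPM in P10 WT and 44.5 CPM in P14 WT, and at 11.9 CPM in P10 cKO and 55.0 CPM in P14 cKO (2.18, 1.57 to 2.92). Both P14 libraries were above both P10 libraries, with no overlap of the pairs. After thinning, 0.956% and 2.68% of P10 WT and P10 cKO microglia had a Gch1 UMI, against 7.17% and 6.35% at P14, and 0.113% to 0.209% of granule cell progenitors in the 4 libraries. In endothelial cells Gch1 was also higher at P14 in both genotypes. Border macrophages were higher at P14 in WT only, at 11.3 and 62.0 CPM, and stood at 64.1 CPM in P10 cKO and 58.5 CPM in P14 cKO.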

How the data were processed

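The authors deposited 1 matrix of UMI counts per library, and the file headers give the version of Cell Ranger: at day 14 it was 7.1.0 in either genotype, at day 10 it was 7.0.1 in cKO but 5.0.0 in WT. Per the submitters' processing notes, mm10, Seurat 4.1.3 and an older Cell Ranger, 3.0.2, were used. Whether intronic reads were counted is not given in the sources used here.

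Cells with at least 500 genes and at most 20% mitochondrial UMIs were kept. A cell joined a class when it carried at least a set number (3 to 6) of that class's 7 to 11 markers, and cells past the gates of more than 1 lineage were left out, which was the treatment of doublets. No doublet caller was run. The numbers were set after the marker distributions were seen, and the members and lists were chosen with earlier results of these data known. Counts were summed per class and library, 0.5 UMI was added to each sum for ratios, and intervals are exact (Poisson, conditional binomial or Clopper-Pearson, 95%). Replicates being absent, no test was made. A fit over both ages with genotype as a term was not run, since the program versions differ. The text names pathway genes from the up to 4 with the largest absolute P14 ratio per list and class, or the 2 with the highest level. Some genes that this rule selects are not reported here. The ratio and interval code (numpy 2.4.6, scipy 1.17.1) was tested on simulated data.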

Additional observations from a re-analysis of the deposited data

How the results depend on the processing

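The count of member ratios past 2-fold at P14, 1 of 79, was 2 with 1 more or 1 fewer marker required, 4 with the mean of each cell's own CPM, 4 with at least 20 UMIs and 6 at 1.5-fold. In 3 restrictions chosen after seeing the data, to cells without a myelin, a macrophage or a fibroblast marker UMI in classes outside that lineage, it was 2 of 43, 2 of 50 and 2 of 62. At P10 the count of 20 of 84 was 9 of 51 with cells thinned before classing, 31 with at least 20 UMIs and 49 at 1.5-fold. It was 10 of 39 without a macrophage and 13 of 54 without a fibroblast marker UMI, where fewer classes had enough cells. The minimum of 20 UMIs admits ratios beyond the 79 and 84. Shares of all genes past 1.5-fold are given above. Those under the other alternatives are not reported here, so these counts are not read against a background.

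Of the recomputed P14 ratios of named pairs of gene and class, 278 stayed within their counting interval, 53 lay outside it and 7 turned. A change of sign was counted as a turn only where the interval of the main ratio did not hold 0. Other ratios changed sign without being counted. Scd2 in myelinating oligodendrocytes ran from -0.24 to 0.32, and Slc7a11 in fibroblasts from -0.26 to 0.25. The 278 include 24 each from the minimum of 20 UMIs and the 1.5-fold threshold, which cannot change a ratio. The alternatives counted below include these as well. With cells thinned before classing, only 7 ratios stayed within their interval, 13 lay outside it and 3 turned. Those that turned were Tfrc in microglia (0.74), Acsl4 in myelinating oligodendrocytes (-2.03) and Gch1 in microglia (-0.20). Without a myelin marker UMI, Scd1 in astroglia was -0.34 and Scd2 in astroglia -0.032. Without a fibroblast marker UMI, Scd1 in astroglia was -0.22, and without a macrophage marker UMI Fth1 in myelinating oligodendrocytes was 0.21. The intervals of these restricted Scd1 and Scd2 ratios held 0. Slc7a11 in astroglia ran from 0.88 to 1.73 over 15 alternatives and Gpx4 in lymphoid cells from -1.48 to -0.79. Over 14, Scd2 in microglia ran from 0.63 to 0.79 and Fth1 in microglia from 0.44 to 0.55. The causes of the turns were not tested. No paired analysis was possible because each group was 1 library and the labels give no replicate numbers.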
